A study of Mus musculus with 2 samples.

Results

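The genes described here are 36 genes of DNA replication and S phase, a fixed list among the 27998 genes of the count matrices. No measured value was part of the rule for the list, but the list was written with earlier results of these data known. All 36 genes were found in both libraries. They were followed through the T cells and myeloid cells of B16Ova tumors, subcutaneous flank melanomas formed in female mice by a mouse melanoma line that carries ovalbumin, collected on day 13. Both groups of mice carried floxed Tcf7 alleles (Tcf7 FL/FL), the gene of the transcription factor TCF1. The wild-type (WT) group was E8i-cre- and the knockout (KO) group E8i-cre+; E8i is an enhancer of Cd8a that drives Cre mainly in CD8 T cells. Each group had 3 tumors, and from each tumor 2000 cells of each of 4 sorted categories (CD8 T cells, CD4 T cells, a CD11c and MHC class II gate, and the other CD45-positive cells) were mixed in equal parts, with 7000 cells loaded per 10x channel. The counts do not separate the tumors, so each group is 1 library. No spread between animals can be estimated, no test was run, and every interval below is a 95% interval that covers counting error only.

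The WT library held 1120 barcodes and 9283014 UMIs (unique molecular identifiers, one per captured transcript) and the KO library 1219 barcodes and 11758449 UMIs, and 1 barcode sequence occurred in both. Filters left 983 WT and 1083 KO cells with medians of 6168 and 8117 UMIs. Clusters built without the listed cell cycle genes were named from marker genes, and T cells were split by Cd8a, Cd8b1, Cd4 and Foxp3 UMIs. This gave 172 WT and 184 KO CD8 T cells, 118 and 145 CD4 T cells without Foxp3, 58 and 30 regulatory T cells (Cd4 and Foxp3), 160 and 180 cDC1s (type 1 conventional dendritic cells), 64 and 106 cDC2s, 98 and 60 mature dendritic cells, 26 and 88 monocytes and 78 and 74 macrophages. A cluster of 32 WT and 14 KO cells that carried both T cell and cDC1 markers was left unnamed, and the sort sets how many cells each class has. Tcf7 itself gave 192 UMIs in WT and 108 in KO CD8 T cells, or 155 and 53.5 CPM (counts per 1e6 UMIs of the class), a ratio of 0.346 (0.271 to 0.440). In CD4 T cells without Foxp3 its level was 232 and 106 CPM. The sources used here do not say whether the captured end of the transcript lies in the deleted part, and the level in CD4 T cells was lower in KO as well.

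Replication begins when ORC, CDC6 and CDT1 load the MCM2-7 helicase onto origins in G1, a step called licensing. CDC45 and GINS turn the loaded MCM ring into the active helicase, the primase and polymerases copy the strands on the sliding clamp PCNA, and FEN1 and LIG1 join the lagging strand. Ribonucleotide reductase, thymidylate synthase, thymidine kinase and dUTPase supply the nucleotides, and CAF-1, UHRF1 and histone supply rebuild chromatin behind the fork. Many of these genes are transcribed in bursts at the G1 to S boundary under E2F factors, so a T cell or dendritic cell that divides in a tumor carries their transcripts while a resting one carries few.

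The shared control by E2F can be looked for in the promoters. RefSeq promoter windows on GRCm38.p6, 250 bases before to 50 after each start site, were matched for 29 of the 36 genes. The E2F site forms TTTCCCGC and TTTGGCGC, searched on both strands, occurred in the windows of 9 of these 29 genes (31.0%), against 1.80% of the 27025 genes with a window. In the 70 other replication genes listed beside the 36, 19 of 58 matched genes had one (32.8%), and among 50 G2/M genes 2 of 44 (4.55%). The order was the other way for TTTGAA, the letters of the CHR element of late cell cycle promoters, which occurred in 3 of 29 replication genes and 33 of 44 G2/M genes, against 20.2% of all genes. The CCAAT box occurred in 17 of 29 replication genes, 33 of 44 G2/M genes and 41.1% of all genes. These are letter matches in a short window and not sites of measured binding. The 30-base stretches below show what the matches share; each is turned so that the E2F letters, in capitals, read 5′ to 3′.
Mcm5, chr8:75109349-75109378, minus strand: aggctggacgtTTTGGCGCgaaagttcttg
Mcm6, chr1:128359797-128359826, minus strand: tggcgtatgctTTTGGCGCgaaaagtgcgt
Mcm6, chr1:128359734-128359763, minus strand: gattggacgggTTTGGCGCgaagtagctca
Mcm7, chr5:138172030-138172059, plus strand: tggacaccctgTTTCCCGCggttcgaaatt
Cdc6, chr11:98908002-98908031, minus strand: accccaggcgaTTTCCCGCtctccaccggc
Pola1, chrX:93632275-93632304, plus strand: gcgggagtgcaTTTGGCGCcctgtgatgac
Hells, chr19:38930917-38930946, plus strand: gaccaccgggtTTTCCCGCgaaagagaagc
2810417H13Rik, chr9:65890307-65890336, minus strand: aaatgggtctcTTTCCCGCgcgctccaagc
The matches lay 149 bases before the RefSeq start site in Mcm5, 110 and 47 in Mcm6, 165 in Mcm7, 138 in Cdc6 and in Pola1, 62 in Hells and 5 in 2810417H13Rik. Mcm3 had 2 matches, 19 and 38 bases after the start, and Cdt1 had its match 32 bases after it. Pcna, Tyms, Rrm2, Dut and E2f1 had neither form in this window, which says only that these letters are not there. The windows of E2f1, Dut, Cdc6 and Mcm7 lay wholly inside the gene bounds of the Ensembl annotation. The matches of Hells and 2810417H13Rik also lay inside those bounds. Whether such windows hold the main promoter was not tested. The whole stretch before the Mcm6 start site is shown because it holds 2 matches, with both in capitals.
Mcm6, chr1:128359706-128359955, minus strand: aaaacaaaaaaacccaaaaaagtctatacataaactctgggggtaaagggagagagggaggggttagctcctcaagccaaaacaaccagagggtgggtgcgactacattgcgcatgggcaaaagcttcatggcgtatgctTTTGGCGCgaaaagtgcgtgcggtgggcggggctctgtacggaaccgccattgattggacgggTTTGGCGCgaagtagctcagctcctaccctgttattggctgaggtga

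Summed over the 36 genes, replication transcripts were at their highest in T cells and their lowest in monocytes and mature dendritic cells. Levels are summed UMIs of the 36 genes as CPM of the class. Such a sum mixes how many cells carry the transcripts with how many transcripts each cell carries. CD8 T cells held 2769 CPM in the WT library and 3508 in the KO library, a ratio of 1.27 (1.22 to 1.32). CD4 T cells without Foxp3 held 1696 and 2999, a ratio of 1.77 (1.64 to 1.91). For regulatory T cells the levels were 2407 and 2285, and the ratio of 0.949 (0.857 to 1.05) could not be told from 1 at this depth. Among dendritic cells, cDC1s held 1231 and 1747, a ratio of 1.42 (1.36 to 1.49), and cDC2s 1234.4 and 1122, a ratio of 0.909 (0.844 to 0.980). Mature dendritic cells, which carry the migratory Ccr7 program, held 439 and 315, monocytes 287 and 263, and macrophages 829 and 711. So CD8 T cells, CD4 T cells and cDC1s were higher in the KO library, and cDC2s, mature dendritic cells and macrophages lower, all by less than 1.5-fold except CD4 T cells.

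**Figure D1:**
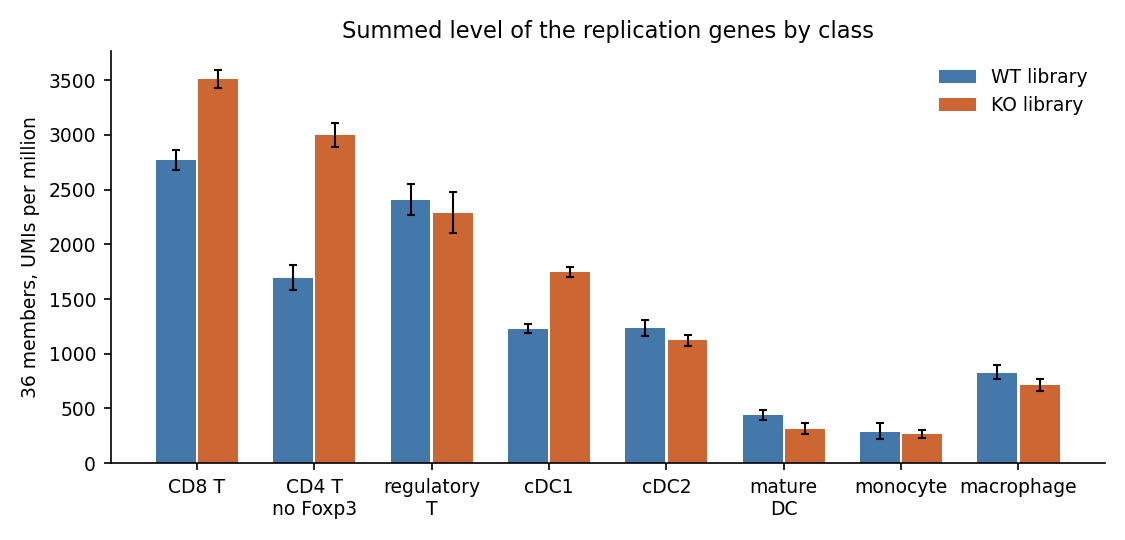
Bars give the summed UMIs of the 36 replication genes as CPM of each class in the WT and KO libraries, 1 library each, and error bars are 95% Poisson intervals. CD8 T cells stand at 2769 and 3508, cDC1s at 1231 and 1747 and monocytes at 287 and 263.

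These sums rest on few cells. The cells richest in replication transcripts held 50% of the class's total in 9 of 172 WT and 18 of 184 KO CD8 T cells, 3 of 118 and 6 of 145 CD4 T cells without Foxp3, 4 of 58 and 2 of 30 regulatory T cells, and 9 of 160 and 14 of 180 cDC1s. The single richest regulatory T cell of the KO library carried 243 of that class's 566 replication UMIs. Taken as the mean over cells of each cell's own level, CD8 T cells stood at 1458 and 2076 CPM, CD4 T cells without Foxp3 at 1055 and 1446, cDC1s at 1011 and 1388, and cDC2s at 816 and 860. The cDC2 difference thus turned direction with the way cells were weighted, and leaving out the richest regulatory T cell of each library moved the log2 ratio of that class from -0.07 to -0.43.

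A cell was called replication-positive when at least 4 of the 36 genes had a UMI after the cell had been thinned to 2000 UMIs, so that deep and shallow cells had the same chance. Cells under 2000 UMIs were left out. In CD8 T cells 23 of 161 WT cells (14.3%, Clopper-Pearson interval 9.28 to 20.7) and 55 of 177 KO cells (31.1%, 24.3 to 38.5) were replication-positive, a difference of 16.8 percentage points (7.52 to 25.7). Over 100 draws of the thinning the difference averaged 14.04 points with an SD of 2.21 between draws. In cDC1s 19 of 158 WT cells (12.03%, 7.40 to 18.1) and 42 of 177 KO cells (23.7%, 17.7 to 30.7) were positive, a difference of 11.7 points (3.09 to 20.1). Over the draws it averaged 7.90 points with an SD of 1.92, so the reported draw lay on the high side. Both intervals lay above 0, but they hold for the reported draw alone. The cDC1 difference was 5.13 points (-2.50 to 12.6) at 6 or more genes, 5.28 (-1.80 to 12.2) with cells thinned to 1000 UMIs and 4.24 (-6.60 to 15.01) without thinning. The CD8 difference was 8.67 points (1.79 to 15.5) with cells thinned to 1000 UMIs and 7.91 (-2.86 to 18.5) without thinning.

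The other classes showed no difference beyond counting error. CD4 T cells without Foxp3 had 12 of 104 WT and 20 of 135 KO cells positive, 11.5% and 14.8%, a difference of 3.28 points (-6.24 to 12.2), although their summed level had the highest ratio of the 8 classes. Regulatory T cells had 9 of 56 and 5 of 30 (16.1% and 16.7%), cDC2s 9 of 62 and 10 of 105 (14.5% and 9.52%), and macrophages 5 of 59 and 4 of 63. Mature dendritic cells had 5 of 91 and 0 of 56, where a count of 0 allows a share of up to 5.36% taken as 3 counts, and 6.38% by Clopper-Pearson. Monocytes, which are largely non-dividing once in tissue, had 0 of 24 and 0 of 88, at median depths of 8084 and 9259 UMIs. Their limits were 12.5% and 3.41% taken as 3 counts, and 14.2% and 4.11% by Clopper-Pearson. Depth before thinning was different in CD8 T cells (medians of 4772.5 and 6474 UMIs) and in cDC1s (15784 and 16571). Monocytes therefore do not set the background that free RNA in the droplets gives in those classes. The KO CD8 T cell and cDC1 shares, 31.1% and 23.7%, lay above both limits of the KO monocytes. Of the WT shares, 14.3% lay above the 12.5% limit of the WT monocytes but nearly level with their Clopper-Pearson limit of 14.2%. The other, 12.03%, lay below both. Both WT intervals reached below these limits, from 9.28% and 7.40%. The part of free RNA in the shares of either library was not tested.

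**Figure D2:**
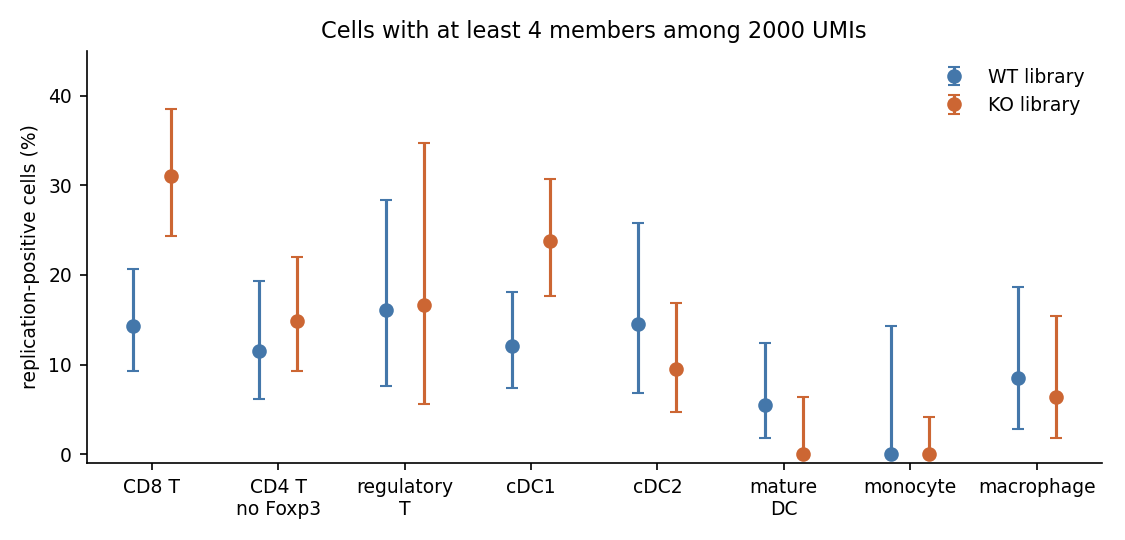
Points give the share of cells with at least 4 of the 36 genes among 2000 UMIs in each class and library, and bars are 95% Clopper-Pearson intervals. The intervals of the libraries are apart in CD8 T cells (14.3% and 31.1%), meet narrowly in cDC1s (12.03% and 23.7%) and overlap in the other classes.

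Without thinning, 45.3% of WT and 53.3% of KO CD8 T cells and 56.9% and 61.1% of cDC1s would have counted, since a deeper cell shows more genes. Depth also differed between the cells compared: before thinning, the median depth of replication-positive CD8 T cells was 19815 UMIs in the WT and 20103 in the KO library, and that of the other CD8 T cells 4708 and 4873. Its part in the result beyond the thinning was not tested. Cells near the line were few in CD8 T cells of the WT library (17 with exactly 3 genes, 4 with exactly 4) and more in the KO library (17 and 12). At 6 or more genes 18 WT and 40 KO CD8 T cells remained (11.2% and 22.6%), and at 8 or more 14 and 28 (8.70% and 15.8%). Of the cDC1s 16 WT and 27 KO cells remained at 6 or more (10.1% and 15.3%), and 11 and 19 at 8 or more.

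**Figure D3:**
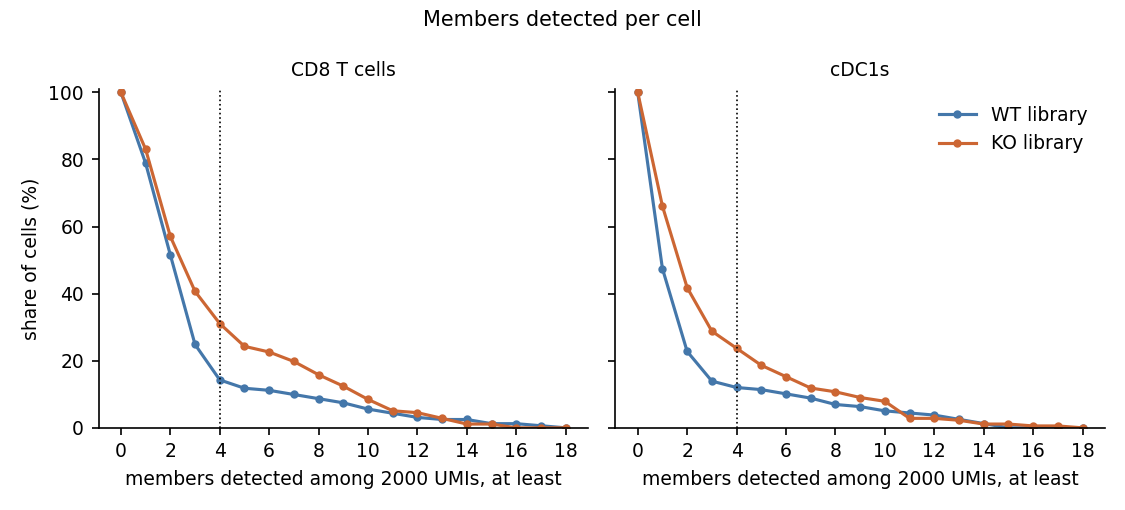
Lines give the share of cells (y axis, %) that hold at least the number of replication genes on the x axis among 2000 UMIs, for CD8 T cells and cDC1s of the WT and KO libraries, and the dotted line marks 4 genes. In CD8 T cells the KO line lies above the WT line at 4 genes (31.1% against 14.3%) and at 8 genes (15.8% against 8.70%).

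Within the positive CD8 T cells and cDC1s the transcripts were not more abundant in the KO library. Thinned replication-positive CD8 T cells held 6130 replication UMIs CPM in WT (5436 to 6889) and 5191 in KO (4774 to 5635), and the remaining CD8 T cells 696 and 676. The same 36 genes chose these cells, so these levels are a description. In cDC1s the positive cells held 6368 and 4869 CPM, and the remaining cells 284 (225 to 354) and 470 (392 to 560). Positive CD4 T cells without Foxp3 held 4667 (3843 to 5615) and 5950 (5218 to 6756), and positive cDC2s 4444 and 5000, with intervals that overlap. The cDC1s below the line also differed between the libraries, which the CD8 T cells below the line did not beyond counting error.

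The CD8 T cells of both libraries lay in the same clusters, in differing proportions. Of the WT cells 79 lay in a cluster led by Cd8b1, Gzmk and Ccl5 (cluster 6), 41 in one led by Nrgn, Prf1, Rgs16 and Ifng (cluster 10) and 41 in one led by Dapl1, Ly6c1 and Lef1 (cluster 4); of the KO cells 48, 85 and 45 did. Replication-positive cells made up 18 of 40 WT and 49 of 84 KO cells of cluster 10 (45% and 58.3%), a difference of 13.3 points (-6.66 to 32.4). Over the draws of the thinning that difference averaged 7.04 points with an SD of 4.27 between draws. Cluster 6 had 3 of 74 and 4 of 47, and cluster 4 had 1 of 39 and 0 of 42. Inside cluster 10 the summed level was 4542 CPM in WT and 4226 in KO, a ratio of 0.930 (0.891 to 0.972), and inside cluster 6 it was 738 and 703. The higher level of the whole class in the KO library was thus not seen inside its largest KO cluster, and Dut is itself among the 10 leading genes of cluster 10 although it took no part in the clustering. Antigen-presenting cell genes (Cd74, H2-Aa, H2-Ab1, H2-Eb1, Cst3 and Lyz2) summed to 1534 CPM in WT and 447 in KO CD8 T cells, with 0 of these 6 genes at 0 in either; the 6 macrophage markers summed to 0 and 7.43, the 6 cDC1 markers to 149 and 261, the 6 monocyte markers to 1390 and 1781 and the 6 mature dendritic cell markers, which include Ccl5, a gene that CD8 T cells express too, to 6595 and 3848. Their part in the result was not tested. Leaving out the 2 WT and 1 KO CD8 T cells rich in antigen-presenting cell genes left the class ratio within its interval.

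Among the roles, licensing stood at 638 CPM in WT and 718 in KO CD8 T cells, a ratio of 1.12 (1.03 to 1.23). A gene was counted as measured in a class when it had 30 UMIs over both libraries, and as higher or lower when its level differed by 1.5-fold or more and the interval of the ratio did not reach 1. By this rule 7 of the 36 genes were higher in KO CD8 T cells and 1 was lower, where 5.62% of all 7175 genes measured were higher and 5.73% lower; 31 of the 36 ratios lay above 1. The median log2 ratio was 0.35, against 0.04 over all genes measured. With each cell weighted equally and no interval, 21 of the 36 reached 1.5-fold upward, the 7 among them, where 14.8% of all genes did. Mcm5, a subunit of the helicase ring, gave 100 UMIs in WT and 214 in KO CD8 T cells, 80.5 and 106 CPM, a ratio of 1.32 (1.03 to 1.69). It was seen in 23 of 172 WT and 57 of 184 KO cells. The ring's other subunits Mcm2, Mcm3, Mcm4, Mcm6 and Mcm7 had ratios from 0.844 to 1.36 and none passed the rule. Cdc6, a loader of the ring, gave 25 and 65 UMIs, 20.1 and 32.2 CPM, a ratio of 1.60 whose interval (0.995 to 2.65) reached 1. Cdt1, the other loader, whose protein is degraded once S phase starts, was the 1 gene lower in KO: 62 and 61 UMIs, 49.9 and 30.2 CPM, a ratio of 0.606 (0.418 to 0.877), seen in 41 WT and 37 KO cells. The ratios of the loaders thus lay on opposite sides of 1.

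Genes of the fork were where most of the higher CD8 calls lay. Cdc45, which completes the helicase, gave 15 and 52 UMIs, 12.1 and 25.8 CPM, a ratio of 2.13 (1.18 to 4.08). All 9 genes for polymerases, clamp and strand joining had ratios above 1, with summed levels of 446 and 605 CPM. Pcna, the sliding clamp, gave 120 UMIs in WT and 299 in KO CD8 T cells, 96.6 and 148 CPM, a ratio of 1.53 (1.24 to 1.91), in 44 and 79 cells. Lig1, the ligase that seals Okazaki fragments, stood at 66.0 and 102.1 CPM, a ratio of 1.55 (1.19 to 2.02). Prim1, the primase subunit, and Pole, the leading-strand polymerase, passed the rule from few UMIs, 26 and 80 for Prim1 (ratio 1.89, 1.203 to 3.07) and 14 and 47 for Pole (2.07, 1.12 to 4.06). Fen1, the flap nuclease, was nearly level at 70.8 and 74.8 CPM.

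Nucleotide supply stood at 708 CPM in WT and 949 in KO CD8 T cells, a ratio of 1.34 (1.24 to 1.45), with all 5 genes above 1. Tyms, thymidylate synthase, gave 86 and 222 UMIs, 69.2 and 110 CPM, a ratio of 1.59 (1.23 to 2.06), and was the 1 gene of the 5 that passed the rule. Dut, the dUTPase that keeps uracil out of DNA, gave 432 and 970 UMIs, 348 and 481 CPM, a ratio of 1.38 (1.23 to 1.55), and was seen in 51 WT and 95 KO cells. Its interval excluded 1 but the difference was under 1.5-fold. Rrm2, the S phase subunit of ribonucleotide reductase, gave 167 and 303 UMIs, 134 and 150 CPM, a ratio of 1.12 (0.921 to 1.36), in 19 and 44 cells. The cells with an Rrm2 UMI thus were a larger share in KO (11.05% and 23.9%) while the level over the class was not detectably different at this depth.

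Of the chromatin genes Hells, a helicase-like remodeller needed for DNA methylation, was higher at 84.5 and 142 CPM from 105 and 287 UMIs, a ratio of 1.68 (1.34 to 2.12). Chaf1b and Atad2 had ratios of 0.867 and 0.841, with intervals across 1. 2810417H13Rik, which encodes the PCNA-associated factor now named Pclaf, gave 406 and 888 UMIs, 327 and 440 CPM, a ratio of 1.35 (1.196 to 1.52), and was seen in 22 of 172 WT and 59 of 184 KO cells. E2f1, the transcription factor that drives many of these genes, gave 37 and 47 UMIs, 29.8 and 23.3 CPM, a ratio of 0.782 (0.497 to 1.24). Ccne2, a cyclin of the G1 to S step, gave only 7 and 23 UMIs.

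**Figure D4:**
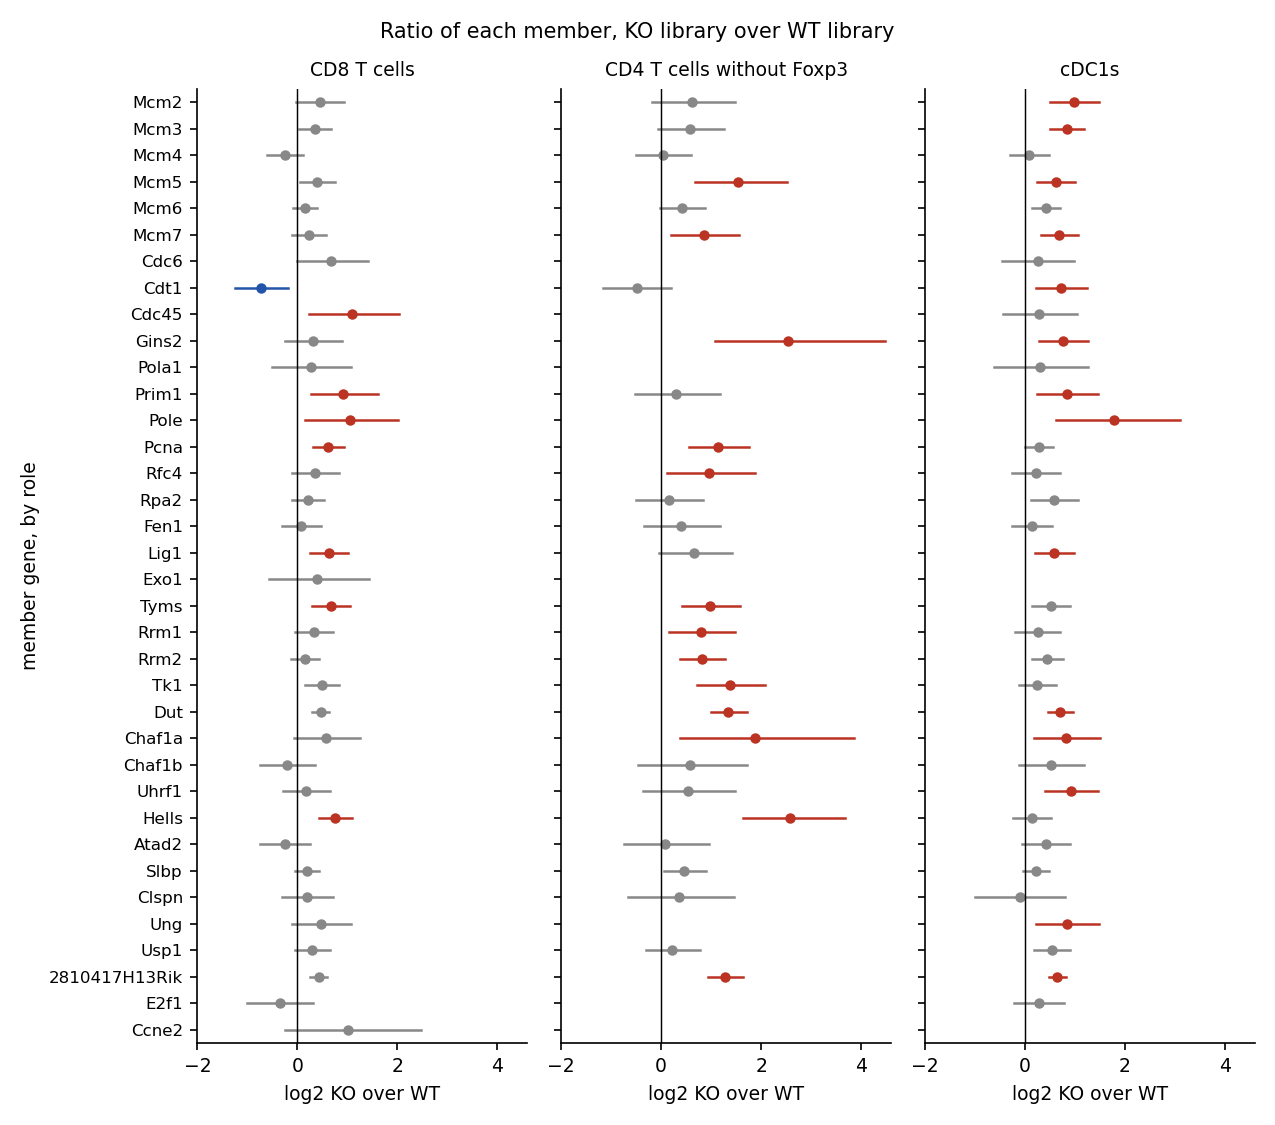
Points give the log2 ratio of each replication gene's level, KO over WT, in CD8 T cells, CD4 T cells without Foxp3 and cDC1s, with 95% exact conditional intervals; red marks genes higher and blue genes lower by the 1.5-fold rule, grey the rest, and genes under 30 UMIs are not drawn. In cDC1s 33 of 34 measured genes lie right of 0, in CD8 T cells 31 of 36.

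CD4 T cells without Foxp3 had 13 of 28 measured genes higher in KO and 0 lower, where 7.76% of all genes measured were higher and 6.43% lower. All 5 nucleotide supply genes were among the 13, from 414 CPM in WT to 895 in KO, a ratio of 2.16 (1.86 to 2.52). With each cell weighted equally, 9 of the 13 genes still reached 1.5-fold, a share not taken over all genes in this class. The log2 ratio of Rrm1 went from 0.80 to 0.096 and that of Tyms from 0.99 to 0.50. Hells, the remodeller, gave 10 and 113 UMIs, 19.2 and 114 CPM, a ratio of 5.96 (3.12 to 12.8). Gins2, a subunit of the GINS part of the helicase, gave 4 and 44 UMIs, a ratio of 5.80 (2.11 to 22.2); its log2 ratio was 2.54, and 0.69 with each cell weighted equally. Dut stood at 149.6 and 380.5 CPM, a ratio of 2.54 (1.99 to 3.29), and 2810417H13Rik at 167 and 405, a ratio of 2.42 (1.92 to 3.09). Tk1, thymidine kinase, gave 23 and 113 UMIs, and Mcm5 13 and 72. These UMIs came from small numbers of cells. 2810417H13Rik was seen in 5 of 118 WT and 15 of 145 KO cells, and 1 WT and 1 KO cell carried 34 and 57 of its 87 and 400 UMIs. In cluster 10, which held 8 WT and 32 KO cells of this class, the summed level was 4071 and 4731 CPM, a ratio of 1.16 (1.06 to 1.28), while in the cluster led by Cd40lg and Cd4 (78 and 66 cells) it was 1002 and 815, a ratio of 0.813 (0.674 to 0.980). Thinning every cell to 2000 UMIs lowered the log2 ratio of the summed level from 0.82 to 0.41.

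Regulatory T cells, few in number, had 0 of 20 measured genes higher and 2 lower, where 4.29% of all genes were higher and 4.41% lower. By the 1.5-fold size alone, with no interval, 1 was higher and 4 lower, where 8.55% and 12.8% of all genes were. Fen1 gave 42 and 8 UMIs, 89.5 and 32.3 CPM, a ratio of 0.361 (0.146 to 0.778), and Usp1, a deubiquitinase that acts on PCNA, 54 and 16 UMIs, a ratio of 0.561 (0.300 to 0.995). Of the 20 ratios 10 lay above and 10 below 1. Tyms was level (100.2 and 105 CPM) and so was Tk1 (83.1 and 84.8). Among G2/M genes, which act after S phase, 9 of 27 measured in this class were higher and 0 lower, among them Tubb4b (215 and 468 CPM) and Cdk1 (44.8 and 109), and their sum stood at 4193 and 5777, a ratio of 1.38 (1.29 to 1.48).

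In cDC1s 14 of 34 measured genes were higher in KO and 0 lower, where 3.2% of all 7864 genes measured were higher and 2.84% lower. The median log2 ratio was 0.52, against 0.02 over all genes. The Tcf7 count in cDC1s was 6 and 11 UMIs. Licensing carried the most calls, 5 of 8, with 279.9 and 417 CPM, a ratio of 1.49 (1.36 to 1.64). Mcm2 gave 51 and 118 UMIs, 20.3 and 40.2 CPM, a ratio of 1.98 (1.41 to 2.81), and Mcm3 110 and 229 UMIs, a ratio of 1.78 (1.41 to 2.26). Cdt1, lower in KO CD8 T cells, was higher here, at 20.3 and 33.4 CPM from 51 and 98 UMIs, a ratio of 1.64 (1.16 to 2.35), and was seen in 20 WT and 53 KO cells. Dut stood at 84.9 and 139 CPM (ratio 1.63, 1.38 to 1.94), 2810417H13Rik at 159 and 249 (1.57, 1.39 to 1.78), and Uhrf1, which brings the maintenance methyltransferase to new DNA, at 17.9 and 34.1 (1.90, 1.32 to 2.77). Pole gave 8 and 32 UMIs, a ratio of 3.42 (1.54 to 8.59). Pcna, Tyms and Hells, all higher in CD8 and CD4 T cells, did not pass the rule in cDC1s, with ratios of 1.22, 1.43 and 1.10; the differences between classes were not tested.

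The cDC1s fell into 2 clusters. One (cluster 5; 145 WT and 153 KO cells) was led by Clec9a and Xcr1, and the other (cluster 14; 15 and 27 cells) by 2810417H13Rik, Stmn1 and Rrm2. The listed replication genes, 2810417H13Rik and Rrm2 among them, were kept out of the clustering. Stmn1, whose counts followed the replication total over cDC1s (Pearson r 0.63), was not, so the clusters are not independent of the cell cycle. In cluster 14, 13 of 15 WT and 22 of 27 KO cells were positive, which is 13 of the 19 and 22 of the 42 positive cDC1s, and it stood at 5445 and 5122 CPM, a ratio of 0.941 (0.888 to 0.996). In cluster 5 the level was 567 and 809, a ratio of 1.43 (1.33 to 1.53). There 6 of 143 and 20 of 150 cells were positive (4.20% and 13.3%), a difference of 9.14 points (2.27 to 16.2). Over the draws of the thinning this difference averaged 5.40 points with an SD of 2.18 between draws. Without thinning, 52.4% of WT and 54.9% of KO cells of cluster 5 counted as positive. The higher summed level of KO cDC1s was therefore present outside the cluster led by replication genes. The size of the share difference there depended on the draw and on thinning. T cell markers were near 0 in cDC1s of both libraries, 36.7 and 41.9 CPM over 5 genes, with 0 of the 5 seen in 25% of cells.

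Across CD8 T cells, CD4 T cells without Foxp3 and cDC1s, 28 genes were measured in all 3 classes and 23 of them had ratios above 1 in all 3. The rule was passed in at least 1 of the 3 classes by 22 genes, in 2 of them by 12 and in all 3 by 0. Such counts were not taken over all genes measured, so whether 23, 22, 12 or 0 is unusual was not tested. Pcna, Tyms and Hells passed in both T cell classes, Prim1, Pole and Lig1 in CD8 T cells and cDC1s, and Mcm5, Mcm7, Gins2, Dut, Chaf1a and 2810417H13Rik in CD4 T cells and cDC1s. The WT cells of every class come from 1 library and the KO cells from the other, so the classes share their depth and handling and are not independent of each other.

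The remaining myeloid classes gave few calls. In cDC2s 2 of 28 measured genes were higher, Uhrf1 (8 and 35 UMIs) and 2810417H13Rik (79 and 216 UMIs, 85.3 and 137 CPM, a ratio of 1.60, 1.23 to 2.10), and 3 were lower, all subunits of the MCM ring, where 3.78% of all genes were higher and 5.07% lower. Mcm3 stood at 58.3 and 37.3 CPM, Mcm5 at 54.0 and 31.0 and Mcm7 at 69.1 and 36.7. Gating cDC2s by markers per cell, which kept 23 WT and 38 KO cells, left 0 of these lower and put the log2 ratio of Mcm5 at 1.09. The share over all genes was not taken under gating. In macrophages 0 of 15 were higher and 1 lower (Fen1, 31 and 17 UMIs; 4.98% and 5.37% of all genes), in mature dendritic cells 0 and 1 of 4 (Mcm3, 30 and 6 UMIs; 3.28% and 3.95%), and in monocytes 0 and 0 of 3 (3.38% and 3.4%).

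The make-up of the 36-gene total differed between monocytes and T cells. The monocyte totals were only 57 UMIs in WT and 219 in KO, so their shares are rough and carry no interval. A count of 0 there says little for a gene that takes a small share, and the differences were not tested. Slbp, the histone stem-loop binding protein, took 22.8% and 23.7% of the replication UMIs of WT and KO monocytes but 6.13% and 5.54% in CD8 T cells. Pcna took 15.8% and 13.7% in monocytes and 3.49% and 4.22% in CD8 T cells, and Usp1 15.8% and 10.96% against 3.11% and 3.02%. 2810417H13Rik, Tk1 and Clspn had 0 UMIs in monocytes of both libraries, while 2810417H13Rik took 11.8% and 12.5% of the total in CD8 T cells and 12.9% and 14.2% in cDC1s. In mature dendritic cells Rrm2 gave 0% and 0.610% of the total, against 4.86% and 4.28% in CD8 T cells, whereas Gins2 gave 4.75% and 4.88% against 1.16% and 1.14%. So Slbp, Pcna and Usp1 were also read from monocytes, where no cell was replication-positive, and 2810417H13Rik and Tk1 were not.

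By class, WT CD8 T cells had the highest level of 19 of the 36 genes, WT regulatory T cells of 16 and WT CD4 T cells without Foxp3 of 1. In the KO library these numbers were 27, 1 and 7, with 1 gene highest in cDC1s. Across 1895 cells thinned to 2000 UMIs from both libraries, the gene that followed the other 35 most closely was 2810417H13Rik (Pearson r 0.56), then Rrm2 (0.47) and Dut (0.45), and the least were Ccne2 (0.13), Cdt1 (0.13) and E2f1 (0.15). Cells of 1 library share its depth and free RNA, and low counts hold r down. Outside the cell cycle lists, the genes whose counts followed the replication total most closely in those cells were Stmn1 (0.56), Hist1h2ap (0.44), Hist1h1b (0.39), Ptma (0.38), Hmgb1 (0.34), Tuba1b (0.34), Hist1h2ae (0.34), Ran (0.33), Ppia (0.32) and Ranbp1 (0.30). Stmn1 encodes a regulator of microtubules and the 3 Hist1 genes encode histones that are made with DNA. Over the 338 CD8 T cells alone Stmn1 also led, at 0.63.

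Other genes of the pathway were read from a list of 70 replication genes outside the 36. Of 65 measured in CD8 T cells 8 were higher in KO and 0 lower, where 5.62% and 5.73% of all genes were. CD4 T cells without Foxp3 had 15 and 1 of 43 (7.76% and 6.43%), and cDC1s 8 and 1 of 59 (3.2% and 2.84%). The median log2 ratio of the list in CD8 T cells was 0.18, against 0.35 for the 36 genes. Asf1b, a histone chaperone, was higher in all 3 and in regulatory T cells, at 44.3 and 82.7 CPM in CD8 T cells (ratio 1.87, 1.37 to 2.58), 42.2 and 87.0 in CD4 T cells (2.06, 1.28 to 3.46) and 28.3 and 44.0 in cDC1s (1.55, 1.15 to 2.11). Gins4, a further GINS subunit, stood at 23.3 and 47.1 CPM in CD8 T cells, a ratio of 2.02 (1.32 to 3.17). Ccna2, cyclin A2, stood at 48.0 and 122 in CD4 T cells and at 30.7 and 49.8 in cDC1s.

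Genes of the next phase, G2/M, gave higher calls in these 3 classes, in regulatory T cells and in macrophages. In macrophages 6 of 18 were higher and 0 lower, where 4.98% and 5.37% of all genes were. The G2/M sum there stood at 1144 and 1388 CPM, a ratio of 1.21 (1.11 to 1.32). With each macrophage weighted equally the direction turned, to 1749 and 1238 CPM. Macrophages with at least 4 G2/M genes were 11 of 59 WT and 6 of 63 KO cells, a difference of -9.12 points (-22.8 to 4.35). Of 43 G2/M genes measured in CD8 T cells 16 were higher and 0 lower, where 5.62% and 5.73% of all genes were. Their median log2 ratio was 0.47, against 0.35 for the 36 replication genes. The G2/M sum in CD8 T cells stood at 3211 and 4615 CPM, a ratio of 1.44 (1.38 to 1.49). Ube2c, a ubiquitin-conjugating enzyme of mitotic exit, gave 99.0 and 202 CPM (2.04, 1.66 to 2.51), and Ccnb2, cyclin B2, 53.1 and 115 (2.16, 1.64 to 2.89). In CD4 T cells 24 of 36 were higher and 0 lower (7.76% and 6.43% of all genes), and in cDC1s 13 of 42 and 0 (3.2% and 2.84%). Ube2c stood at 31.9 and 124 CPM in cDC1s, a ratio of 3.88 (3.04 to 5.01). The cDC2s went the other way, with 0 of 25 higher and 3 lower (3.78% and 5.07% of all genes), Ube2c at 56.2 and 17.7 among them.

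**Figure D5:**
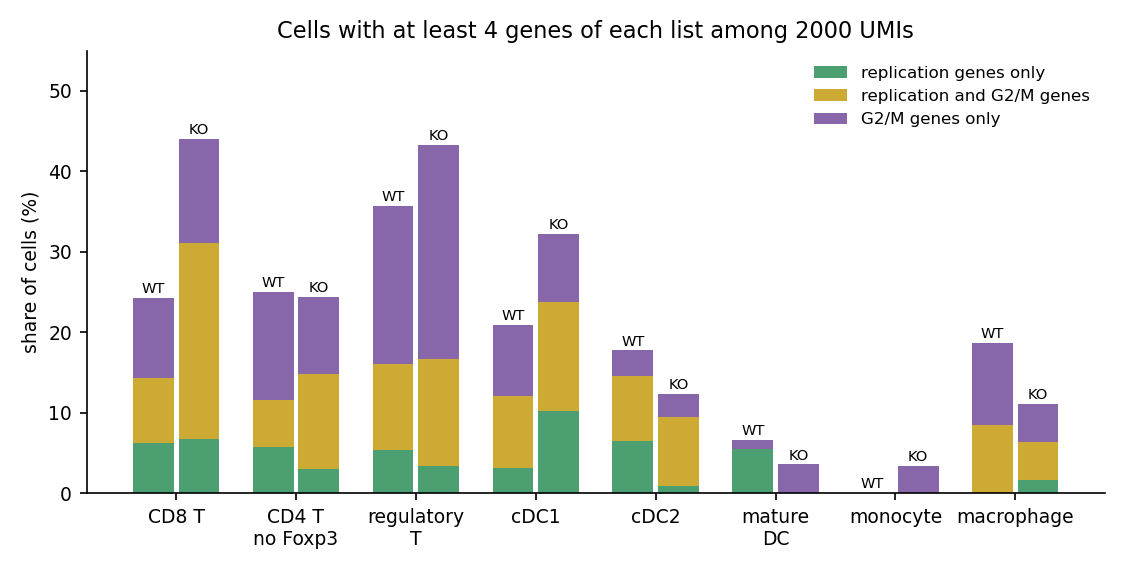
Stacked bars give the share of cells, thinned to 2000 UMIs, with at least 4 replication genes only, at least 4 replication and at least 4 G2/M genes, or at least 4 G2/M genes only, for each class and library. In CD8 T cells the middle group is 8.07% of WT and 24.3% of KO cells, while the share with replication genes only is 6.21% and 6.78%.

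Cells with both gene lists made most of the CD8 difference. By the same line of at least 4 genes, 10 WT and 12 KO CD8 T cells had replication genes only (6.21% and 6.78%), 13 and 43 had both lists (8.07% and 24.3%) and 16 and 23 had G2/M genes only (9.94% and 13.0%). In cDC1s the counts were 5 and 18 for replication only, 14 and 24 for both, and 14 and 15 for G2/M only, so there the replication-only group was the one that differed most, 3.16% and 10.2%. The counts of both classes are of the reported draw and were not averaged over draws. A score-based phase call (scanpy, the 36 genes against the G2/M list) put 42.2% of WT and 44.1% of KO CD8 T cells in S, a difference of 1.83 points (-9.11 to 12.7), and 4.35% and 13.6% in G2/M. In cDC1s it called 20.3% and 33.3% S. The same call put 12.5% of WT and 4.55% of KO monocytes in S, where 0 were replication-positive, so its shares hold a background and cycling is not read from it alone.

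In KO CD8 T cells 6 of 11 measured inhibitors of the cycle were lower and 1 higher, where 5.73% and 5.62% of all genes were. Klf2, a factor of quiescent lymphocytes, stood at 329 and 139 CPM (0.423, 0.362 to 0.493), Tob1, an antiproliferative gene, at 32.2 and 10.4 (0.323, 0.181 to 0.561), Btg2, of the same family, at 156 and 73.8, and Cdkn1b, which encodes the kinase inhibitor p27, at 73.3 and 42.1 (0.575, 0.423 to 0.781). Cdkn1a, the gene of p21, was the exception, at 19.3 and 60.9 CPM, a ratio of 3.15 (2.02 to 5.11). It was also higher in CD4 T cells (34.5 and 63.7) and in cDC1s (53.8 and 86.3). In CD4 T cells 3 of 11 were lower (6.43% of all genes), Btg2, Klf2 and Rbl2, and in cDC1s 0 of 12 (2.84%).

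The study's title names TCF1 and CXCR6, so the positive share was also read by whether a CD8 T cell had a UMI of each gene. Among WT CD8 T cells 2 of 56 with a Tcf7 UMI were replication-positive (3.57%, 0.435 to 12.3) and 21 of 105 without one (20.0%), a difference of -16.4 points (-25.9 to -5.12). In KO CD8 T cells the counts were 1 of 32 (3.13%) and 54 of 145 (37.2%), a difference of -34.1 points (-43.1 to -18.8). A Tcf7 UMI does not mark a Tcf7-expressing cell with certainty: the KO CD8 T cell level of 53.5 CPM stands beside 29.98 in KO monocytes and 34.5 in KO mature dendritic cells, and the WT level of 155 beside 15.1 and 41.7. The cells without a Tcf7 UMI were deeper before thinning (medians of 5841 against 4146 UMIs in WT and 8602 against 3714 in KO), and without thinning the WT difference was -0.839 points (-16.3 to 14.7). For Cxcr6 the shares with and without a UMI were 20.0% and 10.9% in WT and 32.0% and 29.9% in KO, and the intervals of both differences included 0.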

How the data were processed

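The values are raw UMI counts per gene and cell barcode as the authors deposited them, in 1 filtered 10x matrix per library. The submitters' processing notes name Cell Ranger 1.3 and mm10, while the matrix header gives software version 3.0.2. Which is right was not settled, and no other upstream step is given in the sources used here. No column of unmatched samples was present.

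Cells with at least 500 UMIs, 300 genes and at most 10% mitochondrial UMIs were kept, which left out 132 WT and 133 KO barcodes. Scrublet marked 5 WT (0.506%) and 3 KO (0.276%) further cells as doublets, which were removed. Counts were scaled to 10000 per cell and log-transformed for clustering only (scanpy 1.11.5, leidenalg 0.10.2; 2000 variable genes, 30 principal components, 15 neighbours, resolution 1), with 242 cell cycle and histone genes, Tcf7 and antigen receptor genes left out. A cluster was named for a type only when at least 3 of its markers were seen in 25% of the cells. Some clusters met this for several types, so the rule alone did not set every name. The macrophage cluster showed 6 macrophage and 5 monocyte markers, and the cDC2 cluster 5 cDC2, 3 cDC1 and 3 monocyte markers. The names are rebuilt here, not the authors'. NK cells, T cells with neither or both co-receptors, B cells, melanoma cells and the unnamed cluster enter no comparison.

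UMIs were summed per class and library and given as CPM. Ratios are KO over WT with exact conditional binomial intervals, levels have exact Poisson and shares Clopper-Pearson intervals, and the interval of a difference of shares joins both shares' Clopper-Pearson limits by the root of their summed squares, all at 95% and for counting error only. With 1 library per group no p-value was computed. Shares were taken after thinning each cell to 2000 UMIs; 97 WT and 74 KO shallower cells were left out of them. The floor for a count of 0 is 3 counts. The scripts were tested on simulated data. Named by rule were Mcm5, Pcna, Tyms, Rrm2, Dut, Cdc6, E2f1 and 2810417H13Rik in CD8 T cells, up to 6 genes per class with the highest and lowest ratios by the interval bound nearest to 1, up to 4 of each other list by the same order, and the 10 genes most alike; others, such as Fen1, Rbl2 and Cdkn1b in T cells, were chosen after their values were seen. The 36 genes, the other lists and the rules were chosen with earlier results of these data known. Alternatives were the weighting of cells, thinning, marker gates per cell, clustering with cell cycle genes, stricter cell filters, other scalings, other UMI minimums, a scanpy phase call and leaving out the richest cell. Promoters came from RefSeq on GRCm38.p6.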

Additional observations from a re-analysis of the deposited data

How the results depend on the processing

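A value was counted as staying when it lay within the 95% interval of the reported one, or, for a count of genes, within 1.5 times it, and as reversed when the reported interval excluded 0 and the sign changed. By this, of the values that answer a comparison 168 stayed, 37 moved and 3 reversed, and of single genes 119 stayed, 11 moved and 1 reversed. The interval is wide for shares, so staying does not mean close, and signs also changed where the reported interval held 0, as in the regulatory T cell level and share and the cDC2 share (1.31 by the scanpy S call, 2.18 without thinning, against -4.99). The cause was not tested for any of them. Values of the summed level are log2 ratios, KO over WT. In CD8 T cells 0.34 became 0.51 with the mean over cells, 0.50 with thinned cells and 0.41 with marker gates. In CD4 T cells without Foxp3 0.82 became 0.46, 0.41 and 0.95 by the same 3 settings and 1.02 without the richest cell of each library. In regulatory T cells -0.07 became 0.088 with gates, 0.091 with cell cycle genes in the clustering and -0.43 without the richest cells. In cDC1s 0.51 became 0.58 with thinning and 0.61 with gates. In cDC2s -0.14 turned to 0.075 with the mean over cells and to 0.70 with gates, and was -0.37 with thinning, -0.72 with cell cycle genes in the clustering and -0.018 without the richest cells. In macrophages -0.22 turned to 0.063 with cell cycle genes in the clustering, and was -0.65 with the mean over cells, -0.68 with thinning and -0.42 with gates.

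The CD8 difference in positive shares, 16.8 points, was 1.83 by the scanpy S call, and 8.67 with 1000 UMIs. The cDC1 difference, 11.7 points, had intervals across 0 at 6 or more genes (5.13), with 1000 UMIs (5.28) and without thinning (4.24). Without thinning the difference was 7.91 points in CD8 T cells (-2.86 to 18.5), 14.9 in CD4 T cells without Foxp3 (3.09 to 26.1), -18.6 in regulatory T cells, 5.94 in monocytes and -13.4 in macrophages, and the split of CD8 T cells by Tcf7 was -0.839 in WT, and by Cxcr6 32.6 in WT and 36.9 in KO.

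With the mean over cells and no interval, 21 genes in place of 7 were higher in CD8 T cells, 11 in place of 13 higher (9 of them shared) and 1 in place of 0 lower in CD4 T cells without Foxp3, 2 higher and 6 lower in regulatory T cells, and 6 higher in cDC2s. Over all genes, 14.8% were higher in CD8 T cells by that mean over cells. The share was not taken for lower genes or in the other classes, so those counts have no baseline. Regulatory T cells had 1 higher and 4 lower with no interval, and 0 lower with at least 100 UMIs. The cDC2s had 1 higher with at least 100 UMIs, and 1 higher and 0 lower with gates, under which Mcm5 stood at 1.09. The share over all genes was not taken with at least 100 UMIs or with gates, so these counts have no baseline either.

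Each group is 1 library of 3 pooled tumors, so there was no replicate to leave out, no spread between mice is known and library and genotype cannot be told apart. No paired analysis was possible because each group has 1 library. Depth limits the small classes most: 30 KO regulatory T cells and 26 WT monocytes.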
